A study of Arabidopsis thaliana with 8 samples.

Results

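The genes examined here encode the subunits of NUCLEAR FACTOR Y (NF-Y) of Arabidopsis thaliana. They were taken by locus identifier as NF-YA1 to NF-YA10, NF-YB1 to NF-YB10 and NF-YC1 to NF-YC10, 30 of the 27444 protein-coding genes of the TAIR10.1 annotation. All 30 identifiers were found, and 29 carried the NF-Y name in the annotation, where NF-YB9 is listed as LEC1. The rule used identifiers and no measured value.

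The data were chromatin immunoprecipitation sequencing (ChIP-seq) peak lists for CONSTANS (CO) fused to the fluorescent protein Citrine (CIT). Both genotypes were Col-0 plants that carried the SUC2::CO:CIT transgene, in which the promoter of the sucrose transporter gene SUC2 drives the fusion in phloem companion cells, and the second genotype also carried aba1-6, a mutant allele of the zeaxanthin epoxidase gene ABA1 that lowers abscisic acid (ABA). The libraries came from 1 transgenic line, SUC2::CO:CIT #5, whose transgene was brought into aba1-6 by crossing, and the endogenous CO gene was present beside the fusion. Whole seedlings were grown in long days of 16 h light and 8 h dark, 5 g of fresh tissue was taken for each library, chromatin was pulled down with a GFP-Trap nanobody, and 2 biological replicates of each genotype were sequenced with their own inputs. No library from plants without the transgene was analysed here. Seedlings were harvested in the later part of the light period.

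NF-Y is a trimer. NF-YB and NF-YC pair through histone folds, and NF-YA joins the pair and reads the CCAAT box. CO carries a CCT domain that resembles the DNA-reading part of NF-YA, joins the NF-YB and NF-YC pair in its place, and binds TGTG-containing CO-responsive elements such as those in the promoter of FLOWERING LOCUS T (FT). NF-YB2, NF-YB3, NF-YC3, NF-YC4 and NF-YC9 are the subunits best known for promoting flowering in long days, with overlapping roles. The question put to the peak lists was whether the genes that encode these partners were themselves marked by CO:CIT.

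The 2 SUC2::CO:CIT lists held 21054 and 22724 peaks and the 2 aba1-6 lists held 168 and 258. The depth of the libraries was read from the peaks. Each deposited fold enrichment and p-value fix the number of DNA fragments at the summit and the background number it was set against. The expected number over the genome was 11.2 and 10.8 fragments in the SUC2::CO:CIT replicates, 3.57 in aba1-6 replicate 1 and 0.774 in aba1-6 replicate 2. At these levels a called peak needed at least 23, 22, 11 and 5 fragments. At NF-Y peaks the background ran from 11.2 to 11.9 fragments in SUC2::CO:CIT replicate 1 and from 10.8 to 13.1 in replicate 2. For most of these peaks it was the number over the genome, so their fold enrichment held no correction for the input at the locus. All peaks of the SUC2::CO:CIT lists passed a q-value of 0.05, against 108 of 168 and 155 of 258 in the aba1-6 lists. The libraries of the 2 genotypes thus differed in depth along with genotype, and for a peak's absence these cannot be told apart.

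The sequences under 7 peaks upstream of NF-Y genes are shown as examples of peaks that recurred in both SUC2::CO:CIT replicates, picked after the values were seen so that all 3 classes and windows with TGTG, with CCAAT and with neither appear. Each is 100 bp of the TAIR10.1 reference centred between the summits of the replicates and read 5′ to 3′ in the direction of the gene. NF-YA1 is from chr5:4053965-4054064 (minus strand), NF-YA9 from chr3:7325841-7325940 (plus), NF-YB8 from chr2:15575579-15575678 (plus), NF-YB9 from chr1:7730016-7730115 (minus), NF-YC6 from chr5:20559661-20559760 (minus), NF-YC7 from chr5:20555875-20555974 (minus) and NF-YC8 from chr5:9941540-9941639 (minus). None of the 7 overlapped an annotated gene. Capitals mark TGTG or its reverse complement CACA, and CCAAT or its reverse complement ATTGG.
NF-YA1: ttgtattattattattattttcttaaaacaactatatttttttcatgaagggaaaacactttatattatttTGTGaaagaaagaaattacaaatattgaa
NF-YA9: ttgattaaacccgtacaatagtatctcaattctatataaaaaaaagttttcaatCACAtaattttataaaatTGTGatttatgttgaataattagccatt
NF-YB8: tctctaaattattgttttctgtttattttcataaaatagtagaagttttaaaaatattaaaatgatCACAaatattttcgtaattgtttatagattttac
NF-YB9: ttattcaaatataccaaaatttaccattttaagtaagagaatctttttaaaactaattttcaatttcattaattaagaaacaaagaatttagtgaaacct
NF-YC6: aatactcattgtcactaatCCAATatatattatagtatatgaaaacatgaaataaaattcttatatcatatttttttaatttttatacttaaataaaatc
NF-YC7: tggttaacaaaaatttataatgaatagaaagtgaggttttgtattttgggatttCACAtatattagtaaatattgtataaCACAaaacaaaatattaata
NF-YC8: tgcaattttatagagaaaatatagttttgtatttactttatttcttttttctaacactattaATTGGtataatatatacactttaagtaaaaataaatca

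These windows were rich in A and T, with a GC content of 17.0% at NF-YA1, NF-YB8 and NF-YC8, 15% at NF-YC6, 19.0% at NF-YB9, 20% at NF-YC7 and 21.0% at NF-YA9. NF-YA9 and NF-YC7 each held the TGTG word 2 times, NF-YA1 and NF-YB8 held it 1 time, NF-YC6 and NF-YC8 held the CCAAT word and no TGTG, and NF-YB9 held neither.

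A locus was counted when a peak overlapped the gene body or the 3000 bp upstream of its start by at least 1 bp. In SUC2::CO:CIT, 16 of the 30 NF-Y loci (53.3%) had a peak in replicate 1 and 21 (70.0%) in replicate 2. Of all protein-coding genes counted the same way, 55.4% had a peak in replicate 1 and 58.5% in replicate 2. Both replicates had a peak at 15 NF-Y loci (50%), against 49.7% of all genes. The peaks of the replicates overlapped each other at all 15 of these loci (50%), against 47.5% of all genes. No SUC2::CO:CIT peak was found at 8 loci (26.7%), against 35.8% of all genes. The share of NF-Y loci with a peak in both replicates was therefore close to that of protein-coding genes in general.

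**Figure D1:**
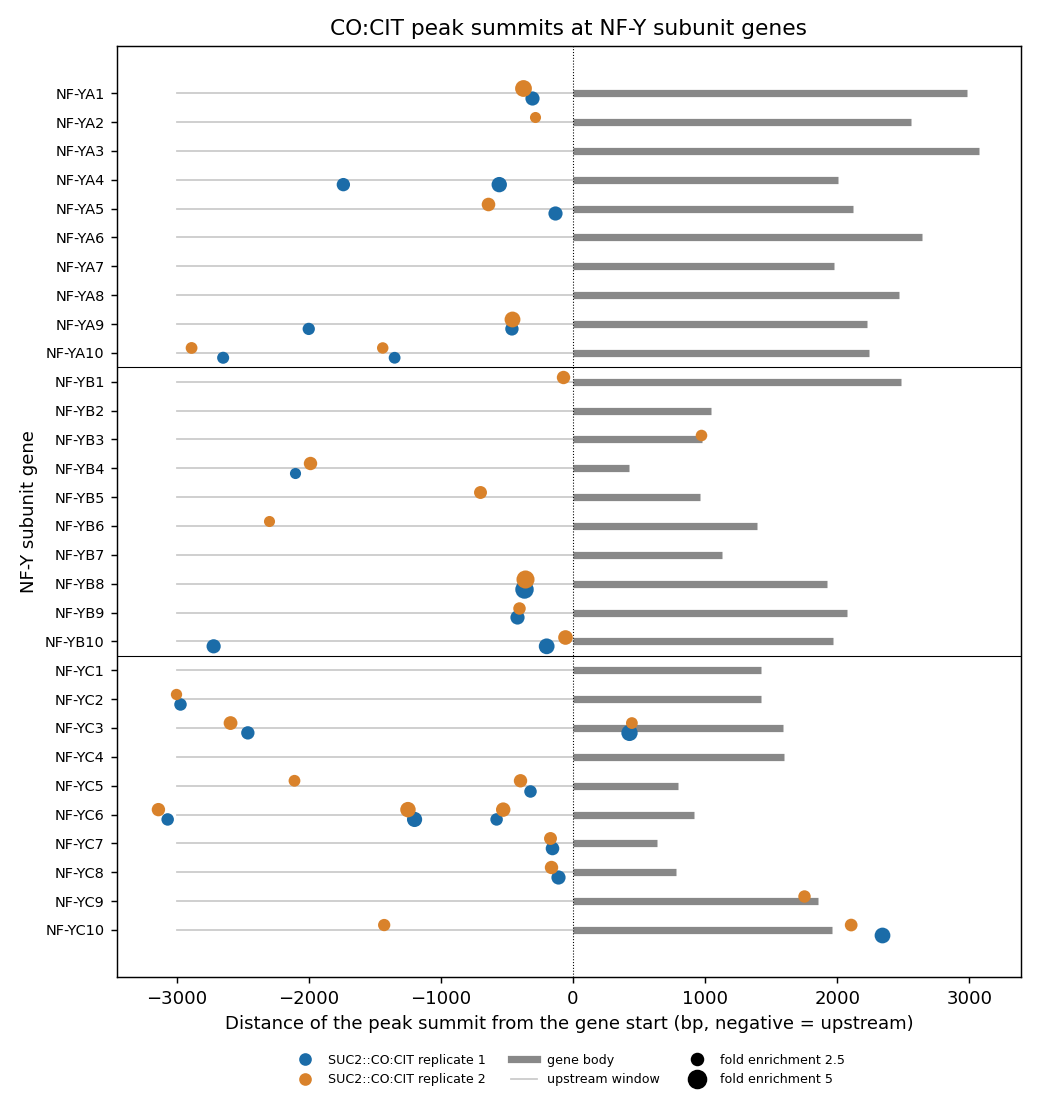
Position of every SUC2::CO:CIT peak summit at the 30 NF-Y genes, as the distance from the gene start in bp along the gene's direction (x axis) for each gene (y axis). Grey bars are gene bodies, thin lines the 3000 bp upstream, colours the replicates and point area grows with fold enrichment. Blue and orange points lie close together at NF-YA9, NF-YB8, NF-YB9, NF-YC7 and NF-YC8, and 8 genes have no point.

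By class, replicates 1 and 2 had peaks at 5 and 5 of the 10 NF-YA loci, at 4 and 8 of the 10 NF-YB loci and at 7 and 8 of the 10 NF-YC loci. Both replicates had a peak at 4 NF-YA, 4 NF-YB and 7 NF-YC loci. The NF-YC count rested partly on neighbours and on peaks at the edges of windows. NF-YC5, NF-YC6 and NF-YC7 lie head to tail within 6109 bp of chromosome 5 (20555120 to 20561228), and 1 peak of each replicate was counted for both NF-YC5 and NF-YC6. When the summit itself had to lie in the window, the counts were 4, 4 and 5, for 13 loci in all (43.3%) against 46.8% of all genes. With 1000 or 500 bp upstream and the gene body, and at a −log10 q of at least 5, they were 3, 3 and 6. Each of these gave 12 loci (40.0%), against 35.7%, 29.6% and 41.6% of all genes. Where the member had to have the nearest start, they were 3, 3 and 5 (36.7% against 34.3%). A −log10 q of at least 10 gave 0, 2 and 1 (10.0% against 17.7%). The median GC content of the window was 35.5% for NF-YA, 34.8% for NF-YB and 38.3% for NF-YC, and that of its least GC-rich 200 bp was 20.75%, 19.75% and 21.25%. With 10 genes in a class and shared peaks, the difference between classes was not tested.

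**Figure D2:**
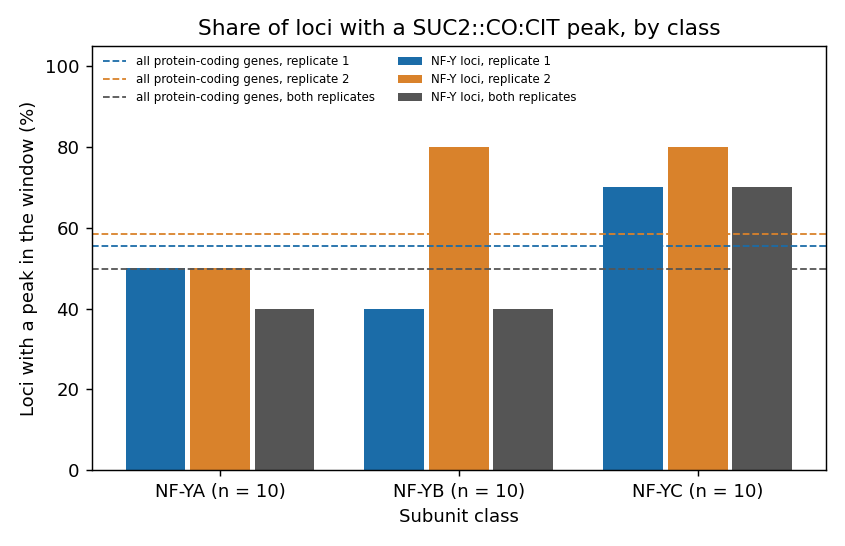
Share of loci with a SUC2::CO:CIT peak in the window (y axis, %) in the NF-YA, NF-YB and NF-YC classes of 10 genes each (x axis), for replicate 1, replicate 2 and both. Dashed lines are the shares of all 27444 protein-coding genes, and the bars for both replicates stand at 40.0%, 40.0% and 70.0% beside 49.7%.

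Among the 5 subunits best known for long-day flowering, grouped here from background knowledge after the values were seen, NF-YC3 had peaks in both replicates. NF-YB3 and NF-YC9 each had a peak in replicate 2 only, at the end of the gene. NF-YB2 and NF-YC4 had no peak.

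NF-YB8 (AT2G37060) had the strongest peaks of the family. Its summit lay 370 bp upstream of the start in replicate 1, with 64 fragments (95% exact Poisson interval 49.3 to 81.7, which like all such intervals here covers counting error only) and a fold enrichment of 5.34. In replicate 2 it lay 363 bp upstream with 60 fragments (45.8 to 77.2) and a fold enrichment of 5.15, and neither aba1-6 library had a peak there. The mean fold enrichment was 5.25 ± 0.129 (SD, n = 2), and the summits were 7 bp apart within peaks 760 and 862 bp wide. The peak ranked 456 of 21054 and 565 of 22724 by p-value. NF-YB8 was the NF-Y gene with the highest fold enrichment in each replicate. Its neighbours in that order were NF-YC3 (4.35) in replicate 1 and NF-YA1 (4.56) in replicate 2, whose fragment intervals overlap those of NF-YB8.

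The other NF-YB genes with near peaks in both replicates were NF-YB10 and NF-YB9. NF-YB10 (AT3G53340) had 49 fragments (36.3 to 64.8) and a fold enrichment of 4.11 at 199 bp upstream in replicate 1, and 42 fragments (30.3 to 56.8) and 3.63 at 60 bp upstream in replicate 2. NF-YB9 (AT1G21970), which as LEAFY COTYLEDON1 is a regulator of embryo development, had 41 fragments (29.4 to 55.6) and 3.45 at 427 bp upstream in replicate 1. In replicate 2 it had 32 fragments (21.9 to 45.2) and 2.79 at 407 bp upstream. Replicate 1 was the higher in both genes, by less than the counting intervals.

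Among NF-YA genes, which encode the CCAAT-reading subunit and several of whose mRNAs are targets of the microRNA miR169, 3 had near peaks in both replicates. NF-YA1 (AT5G12840) had 41 fragments (29.4 to 55.6) and a fold enrichment of 3.45 at 313 bp upstream in replicate 1, and 53 fragments (39.7 to 69.3) and 4.56 at 379 bp upstream in replicate 2. NF-YA9 (AT3G20910) had 37 fragments (26.1 to 51.0) and 3.12 at 462 bp upstream in replicate 1, and 48 fragments (35.4 to 63.6) and 4.14 at 465 bp upstream in replicate 2. Both genes were higher in replicate 2, with means of 4.01 ± 0.788 and 3.63 ± 0.722 (SD, n = 2). NF-YA5 (AT1G54160), known for a role in drought resistance, had 41 fragments (29.4 to 55.6) and 3.45 in replicate 1 and 37 fragments (26.1 to 51.0) and 3.21 in replicate 2. Its peaks were broad, at 691 and 749 bp, and although they overlapped, their summits were 503 bp apart, at 138 and 641 bp upstream. The position of binding upstream of NF-YA5 was thus not fixed by the replicates.

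NF-YC3 (AT1G54830) had the only summits within a gene body that recurred in both replicates. They lay 428 and 446 bp after the start, in an exon outside the coding sequence, with 52 fragments (38.8 to 68.2) and a fold enrichment of 4.35 in replicate 1 and 29 fragments (19.4 to 41.6) and 2.54 in replicate 2. The ratio of 1.72 between the replicates was the largest of all matched peaks at NF-Y loci. A second pair of peaks, 2461 and 2592 bp upstream with fold enrichments of 3.12 and 3.30, lay inside the neighbouring gene AT1G54820.

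The cluster on chromosome 5 held 4 recurring peaks. NF-YC7 (AT5G50470) had 38 fragments (26.9 to 52.2) and a fold enrichment of 3.20 at 161 bp upstream in replicate 1, and 34 fragments (23.5 to 47.5) and 2.96 at 173 bp upstream in replicate 2. NF-YC6 (AT5G50480) had 33 fragments (22.7 to 46.3) and 2.79 at 578 bp upstream in replicate 1, and 41 fragments (29.4 to 55.6) and 3.55 at 528 bp upstream in replicate 2. Farther out, the peak whose sequence is printed above had 46 fragments (33.7 to 61.4) in each replicate, with fold enrichments of 3.86 and 3.97 at 1199 and 1249 bp upstream. That peak was the strongest of the cluster, and its window had the lowest GC content of those printed. The peak shared by the windows of NF-YC5 and NF-YC6 lay 327 bp upstream of NF-YC5 (AT5G50490) with 35 fragments (24.4 to 48.7) and 2.79 in replicate 1. In replicate 2 it lay 397 bp upstream with 36 fragments (25.2 to 49.8) and 3.13. NF-YC8 (AT5G27910), on the same chromosome but outside the cluster, had 41 fragments (29.4 to 55.6) and 3.45 at 117 bp upstream in replicate 1, and 36 fragments (25.2 to 49.8) and 3.13 at 170 bp upstream in replicate 2.

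**Figure D3:**
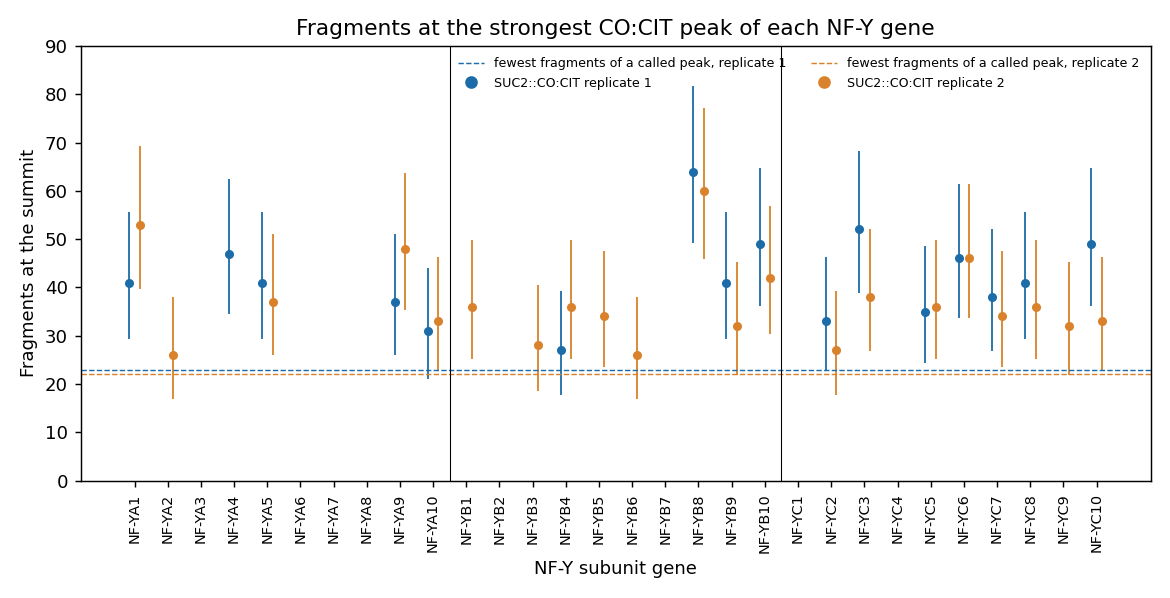
Fragments at the summit of the peak with the most fragments at each NF-Y gene (y axis, with 95% exact Poisson intervals) for each gene (x axis) in SUC2::CO:CIT replicates 1 and 2. Dashed lines mark the smallest fragment numbers that gave a call, 23 and 22, and NF-YB8 stands highest at 64 and 60 (for NF-YA10 and NF-YC3 the points of the replicates belong to different peaks).

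The peaks counted for the other 4 loci with peaks in both replicates lay farther away. NF-YA10 (AT5G06510) had 2 matched peaks between 1350 and 2887 bp upstream, with fold enrichments from 2.42 to 2.63, and the nearest gene start to each was that of AT5G06500. NF-YB4 (AT1G09030) had a peak 2101 and 1993 bp upstream, with fold enrichments of 2.30 and 3.13, nearest to the start of AT1G09040. NF-YC2 (AT1G56170), at the edge of its window, had a peak 2977 and 3006 bp upstream with fold enrichments of 2.79 and 2.37, nearest to AT1G56160. At NF-YC10 (AT1G07980) the peaks overlapped the last 10 and 21 bp of the gene, and their summits, with fold enrichments of 4.11 and 2.87, lay beyond its end, nearest to the start of AT1G07970. At these 4 genes the recurring peaks thus counted through the window, while another gene had the nearest start. Peaks without a partner in the other replicate were also found at NF-YA9 (2000 bp upstream, fold enrichment 2.71) and NF-YB10 (2720 bp, 3.45) in replicate 1 and at NF-YC5 (2108 bp, 2.54) and NF-YC10 (1429 bp, 2.71) in replicate 2.

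A peak in only 1 replicate was found at 7 of the 30 NF-Y loci, against 3982 of all 27444 protein-coding genes. Of the 7 loci, 6 were seen in replicate 2 alone, with 26 to 36 fragments and fold enrichments from 2.28 to 3.13. Over all genes, 16055 had a peak in replicate 2, and 13632 of these also had one in replicate 1. These differences from all genes were not tested. NF-YB1 (AT2G38880) had its summit 74 bp upstream (fold enrichment 3.13), NF-YA2 (AT3G05690) 286 bp upstream (2.28), NF-YB5 (AT2G47810) 702 bp upstream (2.96) and NF-YB6 (AT5G47670) 2301 bp upstream within AT5G47650 (2.28). NF-YB3 (AT4G14540) and NF-YC9 (AT1G08970) had theirs 972 and 1751 bp after the start, in exons outside the coding sequence (2.45 and 2.77). None of the 6 exceeded the medians of the replicate 2 list, 36 fragments and 3.13, which NF-YB1 equalled.

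NF-YA4 (AT2G34720) was the reverse case. Replicate 1 had a peak 558 bp upstream with 47 fragments (34.5 to 62.5) and a fold enrichment of 3.94 and a second one 1738 bp upstream with a fold enrichment of 3.12, and replicate 2 had none in the window. Of the 4042 peaks of replicate 1 with a p-value at least as small as that of the nearer peak, 52 (1.29%) lacked an overlapping peak in replicate 2. A peak of this strength thus seldom went without a partner, and NF-YA4 was such a case.

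No SUC2::CO:CIT or aba1-6 peak was found at NF-YA3 (AT1G72830), NF-YA6 (AT3G14020), NF-YA7 (AT1G30500), NF-YA8 (AT1G17590), NF-YB2 (AT5G47640), NF-YB7 (AT2G13570), NF-YC1 (AT3G48590) and NF-YC4 (AT5G63470). A peak list gives no fragment number where no peak was called, so weaker binding at these loci was not detectable here.

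Over all NF-Y loci, the 22 distinct peaks of replicate 1 had a median fold enrichment of 3.33 (range 2.30 to 5.34) and the 26 of replicate 2 one of 2.96 (2.28 to 5.15). The medians of the whole lists were 3.12 and 3.13, so the NF-Y peaks stood above the list in 1 replicate and below it in the other. The strongest peak of each NF-Y locus had a median fold enrichment of 3.45 and 3.13, and that of all genes with a peak 3.37 and 3.38. By this measure too, NF-Y loci stood above all genes in replicate 1 and below them in replicate 2. The NF-Y medians of the 2 replicates had an SD of 0.228 (n = 2). The differences from all genes were not tested.

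Where peaks of the replicates overlapped, their summits lay about as close together at NF-Y genes as elsewhere. Peaks without a partner were not part of this comparison. Of 18 pairs of overlapping peaks, 12 had summits within 100 bp of each other, and the median separation was 59.5 bp, against 54 bp over 17399 pairs of the genome. Fold enrichment was higher in replicate 1 in 11 pairs and in replicate 2 in 7. The fragment intervals of the replicates overlapped in every pair, which does not show that the levels were equal.

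Summits at NF-Y loci lay within 500 bp upstream of the start in 9 of 23 cases in replicate 1 (39.1%) and in 10 of 27 in replicate 2 (37.0%). Over all genes these shares were 23.9% and 24.1%. In the range from above 1000 to 3000 bp upstream the shares were 39.1% and 29.6%, against 41.4% and 41.3% over all genes. With windows of 500 bp upstream and the gene body, 12 NF-Y loci (40.0%) had peaks in both replicates against 29.6% of all genes, and with 1000 bp upstream they were again 12 (40.0%) against 35.7%. From above 500 to 1000 bp upstream the shares were 8.7% and 11.1%, against 14.8% and 14.4%, and in the gene body 4.35% and 11.1%, against 10.8% and 11.2%. The excess over all genes was thus in the first 500 bp, a difference of a few peaks, and it was not tested. The member was the gene with the nearest start in 13 of 23 and 16 of 27 cases. Counting only such peaks, 11 NF-Y loci (36.7%) had peaks in both replicates, against 34.3% of all genes.

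Base composition went with the presence of a peak. Over 200 bp centred on the summits of NF-Y loci, median GC was 21.5% in replicate 1 and 22.0% in replicate 2, against 22.0% over each whole list. Of the NF-Y peaks, 18 of 22 and 19 of 26 were below 25% GC. Among the windows, the least GC-rich 200 bp had a median GC content of 18.5% (13 to 24.5) at the 15 loci with peaks in both replicates, 20% (17.0 to 26.5) at the 7 with a peak in 1 and 25% (21.5 to 32.5) at the 8 without. Over all genes the medians were 18.0%, 22.0% and 25.5%. Of the 15 NF-Y windows that fell below 20% GC somewhere, 12 (80.0%) had peaks in both replicates, against 89.0% of such genes, and of the 7 that never fell below 25%, 0 did, against 3.42% of such genes. NF-Y loci thus followed the relation seen across the genome, and the part of base composition in the presence of a peak was not tested.

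**Figure D4:**
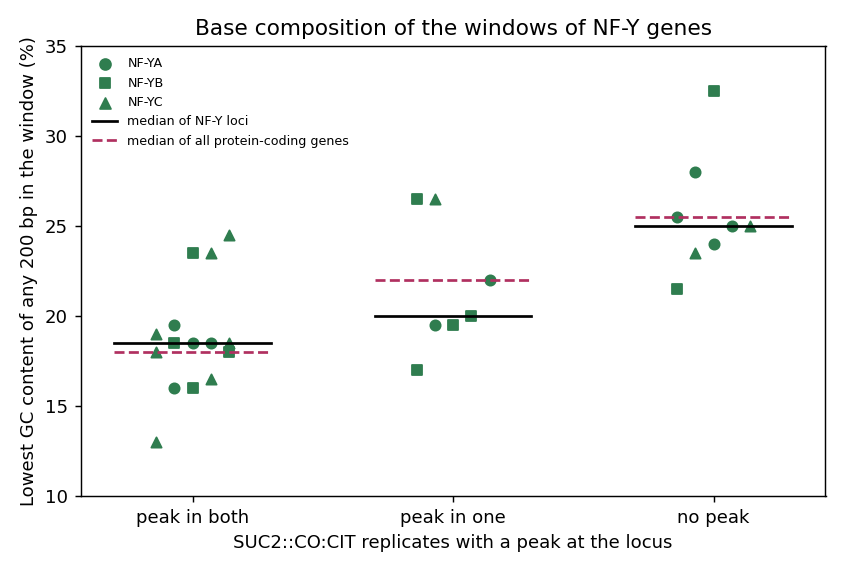
Lowest GC content of any 200 bp of the window (y axis, %, starting at 10) of the 30 NF-Y genes, split by whether both, 1 or none of the SUC2::CO:CIT replicates had a peak (x axis). Solid lines are medians of NF-Y loci (18.5%, 20% and 25%) and dashed lines medians of all protein-coding genes (18.0%, 22.0% and 25.5%), and the groups overlap.

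Words of the CO and NF-Y recognition sequences were searched on both strands in the 100 bp around each summit. TGTG was found at 13 of 22 NF-Y peaks of replicate 1 (59.1%, exact Clopper-Pearson 95% interval 36.4 to 79.3) and at 11 of 26 of replicate 2 (42.3%, 23.4 to 63.1). Over all peaks the shares were 35% and 35.4%, and over 100-bp tiles of promoters 48.7%. CCACA, whose reverse complement TGTGG contains TGTG, was found at 3 of 22 (13.6%) and 2 of 26 (7.69%) NF-Y peaks, against 5.6% and 5.7% of all peaks and 13.2% of tiles. CCAAT was found at 2 of 22 (9.09%, 1.12 to 29.2) and 4 of 26 (15.4%, 4.36 to 34.9), against 13.8% and 13.9% of all peaks and 20.3% of tiles. These intervals treat peaks as independent draws, although some lay at the same locus, and differences between shares were not tested. Of these shares, that of TGTG in replicate 1 was the one whose interval lay above the share of all peaks. That interval included the share of promoter tiles, and the interval of replicate 2 included both. In 200 bp around the summits of replicate 1, TGTG was found at 68.2% of NF-Y peaks (45.1 to 86.1), an interval that included the 59.4% of all peaks.

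In the aba1-6 background no NF-Y locus had a peak in either replicate. The counts were 16 and 21 loci in SUC2::CO:CIT (mean 18.5 ± 3.54, SD, n = 2) and 0 and 0 in aba1-6, and the difference of 18.5 loci had p = 0.333 in a two-sided exact permutation test over the 4 libraries, the smallest p this design allows. Of all protein-coding genes, 0.765% had a peak in aba1-6 replicate 1 and 1.24% in replicate 2, which over 30 genes comes to 0.23 and 0.373 loci. A count of 0 was thus near the level of the whole lists. The nearest aba1-6 summit to the start of any NF-Y gene was 15716 bp away in replicate 1 and 12306 bp away in replicate 2.

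The aba1-6 libraries were shallower than those of SUC2::CO:CIT. Scaled by the ratio of background fragments, the strongest summits at NF-Y loci would hold a median of 13.1 (from replicate 1 of SUC2::CO:CIT) or 11.9 fragments (from replicate 2) in aba1-6 replicate 1. Of these loci, 13 of 16 and 13 of 21 would reach the 11 fragments of its weakest called peaks. In aba1-6 replicate 2 the medians would be 2.84 and 2.57 fragments, with highest values of 4.43 and 4.29, and 0 of 16 and 0 of 21 loci would reach the 5 fragments of its weakest called peaks. These are expected numbers, around which counts vary. They start from the strongest peak of loci that were called in SUC2::CO:CIT, a choice that raises them. The part of depth in the absence of peaks was not tested.

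The related histone-fold subunits NF-YB11 to NF-YB13 and NF-YC11 to NF-YC13 gave 3 of 6 loci with peaks in both SUC2::CO:CIT replicates, NF-YC11, NF-YC12 and NF-YC13, at 2 of which the peaks overlapped, beside 49.7% of all genes with peaks in both. NF-YC11 had its summits 481 and 304 bp upstream with fold enrichments of 2.63 and 3.63. NF-YB11 had a peak in aba1-6 replicate 2, beyond the end of the gene, with 6 fragments and a −log10 q of 1.12. Of the 14 MIR169 loci, whose microRNA targets NF-YA mRNAs, 6 had a peak in replicate 1, 11 in replicate 2 and 6 in both, with overlapping peaks at 4, beside 55.4%, 58.5% and 49.7% of protein-coding genes. Some of these loci are neighbours and shared a peak, as MIR169D and MIR169E did in both replicates. MIR169I had a peak of 9 fragments in aba1-6 replicate 2.

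For reference, FT, the florigen gene that CO activates, had its strongest window peak 460 and 463 bp upstream, with 44 fragments (32 to 59.1) and a fold enrichment of 3.69 in replicate 1 and 38 fragments (26.9 to 52.2) and 3.30 in replicate 2. The upstream peak of NF-YB8 was higher in both replicates, with intervals that overlap those of this FT peak. FT also had recurring peaks in an intron (fold enrichments 3.45 and 2.79) and 1873 and 1893 bp upstream (2.79 and 2.45). A further peak lay 2677 bp upstream in replicate 2 (2.37). Whether any of these peaks lay at the CO-responsive elements was not examined. SUPPRESSOR OF OVEREXPRESSION OF CO 1 (SOC1), a floral integrator, had a peak in replicate 2 only, with a fold enrichment of 2.45. CO itself had a peak in aba1-6 replicate 1 only, in coding sequence, with a fold enrichment of 1.96. It held 74 fragments over a local background of 37.3, which was 10.4 times the background of that library's genome. The transgene also holds CO coding sequence, so these fragments cannot be assigned to the endogenous gene.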

How the data were processed

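ChIP-seq of CO:CIT was available for 2 replicates of SUC2::CO:CIT and 2 of SUC2::CO:CIT aba1-6, as 1 peak list per library; inputs entered through the lists. Per the paper's methods and the submitters' processing notes, the authors used fastp for trimming and Bowtie2 for alignment against TAIR10.1 (the notes name TAIR10), then called peaks with macs2 for each replicate against its own input. Versions are not given in the sources used here. Each deposited row holds a peak score (10 times −log10 q, cut to whole numbers), a fold enrichment, that is a ratio of ChIP to background with a pseudocount of 1, and the deposited −log10 p and −log10 q. The lists are per replicate, and the reproducibility and region filters of the paper's methods were not applied here. The paper kept a minority of its called SUC2::CO:CIT peaks after filtering. Overlap of peaks between replicates was thus a looser criterion here than in the paper.

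Summit fragments and background were recovered from the fold enrichment and −log10 p of the same row; whole fragments came out for 100% of peaks in each list, within 0.1% of −log10 p. The recovery and the overlap were tested on simulated data. Because macs2 fold enrichment depends on depth, it was compared within genotypes only. Genes, gene starts and sequence were from the RefSeq TAIR10.1 annotation and genome, whose sequence names match the lists. Windows were the gene body and 3000 bp upstream, with an overlap of 1 bp or more. All 30 genes are accounted for. Values are given in full for genes with summits within 1000 bp upstream or in the gene in both SUC2::CO:CIT replicates (11 genes), and others by counts and ranges. The genes and lists were chosen with earlier results of these data known. The alternatives were a stricter q, other windows and overlap rules, leaving out each replicate, a replicate block and a wider motif window. Python 3.11.15, numpy 2.4.6, pandas 2.3.3, scipy 1.17.1 and matplotlib 3.10.9 were used.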

Additional observations from a re-analysis of the deposited data

How the results depend on the processing

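Of 73 alternative values, 9 moved by more than 1.5 times (counts of loci), the replicate SD (medians) or the 95% interval (motif shares). The genotype difference was judged by its direction and test. The exact permutation over 4 libraries stayed at p = 0.333, the value it must take while no NF-Y locus is called in aba1-6. A change in the size of this difference was therefore not counted as a move. With a −log10 q of at least 10, 3 loci had peaks in both SUC2::CO:CIT replicates (0 NF-YA, 2 NF-YB and 1 NF-YC), against 17.7% of all genes, the median strongest fold enrichment was 4.11 and 4.14, and the difference between genotypes fell from 18.5 to 5.5 loci. A threshold of 5 gave 12 loci against 41.6%. Around summits, 200 bp in place of 100 bp gave CCAAT at 36.4% of NF-Y peaks in replicate 1 (27.8% of all peaks), TGTG at 73.1% in replicate 2 (59.8% of all peaks), and CCACA at 23.1% in replicate 2 (12.7% of all peaks). Leaving out replicate 1 or 2 of SUC2::CO:CIT gave 21 or 16 loci, with 5 and 5 NF-YA, 8 and 4 NF-YB and 8 and 7 NF-YC. The difference between genotypes ranged from 16 to 21 loci without 1 library and was 18.5 loci with the replicate block (exact permutation within pairs, two-sided p = 0.5, the smallest possible). Whether the replicate numbers paired the libraries could not be decided. Deviations of replicate 1 from the genotype mean in peaks per gene gave r = -0.0089 (27444 genes, which are not independent replicates, and 2 pairs). Only 0.765% and 1.24% of genes had a peak in the aba1-6 replicates, so few genes could contribute to this value. The low depth of the aba1-6 libraries and the 2 libraries per genotype limit the genotype comparison.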
